A study of Mus musculus with 5 samples.

Results

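Regions enriched for macroH2A1.2-GFP were examined at the genes of 36 transcription factors that drive or restrain the formation of fat cells, out of 21754 protein-coding genes. The genes were listed by name, and each was given a window of its GENCODE M21 gene body and 10 kb on either side in the mm10 build. All enriched regions that overlapped a window by at least 1 bp were taken. At least 1 region was found in at least 1 sample for 24 of the 36 genes, and 12 had none.

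The cells were 3T3-L1, a mouse fibroblast line that can be turned into fat cells in culture, with a lentivirus for stable expression of macroH2A1.2 fused to GFP. Chromatin was immunoprecipitated with an anti-GFP antibody from pre-adipocytes (untreated, 2 samples) and from mature adipocytes (2 samples), and 1 library made without antibody served as the control for all 4. Differentiation was induced by 60 h in a cocktail of insulin at 10 µg/ml, dexamethasone at 0.25 µM and IBMX, which raises cAMP, at 500 µM, and the labels give no day of harvest for the ChIP samples. Conditions follow the sample titles, although the description fields of both mature samples place them before differentiation and the control's describes GFP cells with the antibody. Both conditions carried the transgene, so the tagged protein and not the cells' own macroH2A1.2 was measured, and no cells lacking it were compared here. Cell identity cannot be checked from these tables, which hold no RNA.

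MacroH2A1.2 is a histone H2A variant with a large globular domain that replaces H2A in part of the nucleosomes and tends to lie in broad, transcriptionally quiet domains. Fat cell formation runs as a cascade. Hormones first induce C/EBPβ and C/EBPδ, these induce C/EBPα and PPARγ, and this pair then turns on the genes of lipid storage. KLF and EBF factors, glucocorticoid and cAMP signalling and sterol and glucose sensors feed into the cascade, while GATA factors and several repressors hold pre-adipocytes back.

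The tables held 36468 to 61196 regions per sample. Replicate 2 of pre-adipocytes was the shallowest sample. Its library was 0.549 times the size of the control library, against 1.20 to 1.23 times in the other 3 samples, and its regions held a median of 57 ChIP reads, against 121 to 186. Regions inside the windows numbered 47 in replicate 1 of pre-adipocytes, 28 in replicate 2, 70 in replicate 1 of mature adipocytes and 76 in replicate 2. Their median length was 5200, 2800, 3500 and 3000 bp in the same order. The part that depth plays in the differences between samples was not tested.

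In pre-adipocytes 19 and 12 of the 36 genes had a region, and in mature adipocytes 20 and 19. Among all protein-coding genes the shares were 33.7% and 29.3% in pre-adipocytes and 40.0% and 40.2% in mature adipocytes. Both mature samples lay at or above the higher pre-adipocyte sample, and only replicate 2 of pre-adipocytes was low. The difference of means was 4 genes (15.5 ± 4.95 and 19.5 ± 0.707, SD, n = 2 each; two-sided exact permutation test, p = 0.667), and 0.5 genes without replicate 2 of pre-adipocytes. With the same number of regions taken from every sample it turned to -3.5 genes. With 2 samples per condition this test cannot give a p under 0.333.

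Regions covered 7.20% and 2.53% of all window bases in pre-adipocytes and 8.00% and 7.76% in mature adipocytes. Over the windows of all protein-coding genes they covered 7.78% and 3.60%, and 8.04% and 7.77%. Pooled over bases, where long genes weigh most, the factor genes were covered less than all genes in both pre-adipocyte samples. In both mature samples they were about level with all genes. The median share per factor gene was 2.56% and 0% in pre-adipocytes and 0.993% and 3.03% in mature adipocytes, against 0% over all genes in each sample. By pooled share the conditions did not overlap (4.86 ± 3.30% and 7.88 ± 0.165%, SD, n = 2; exact permutation test, p = 0.333, the smallest possible). Without replicate 2 of pre-adipocytes the difference fell from 3.02 to 0.684 percentage points, and with the same number of regions from every sample to 0.612. With equal numbers the conditions overlapped, at 7.20% and 2.38% in pre-adipocytes and 5.15% and 5.65% in mature adipocytes. They also overlapped with 20 kb flanks, at 9.24% and 3.03% in pre-adipocytes and 9.21% and 8.63% in mature adipocytes.

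Enrichment over the control did not separate the conditions. Fold enrichment here means ChIP reads over control reads of a region, scaled for library size. Its median over regions in the windows was 1.63 and 1.99 in pre-adipocytes and 1.88 and 1.87 in mature adipocytes, beside 1.61, 2.01, 1.79 and 1.82 over all regions. The 2 pre-adipocyte samples enclosed both mature ones (exact permutation test, p = 1). The difference of means, 0.0657, turned to -0.0566 for regions of FDR at most 1e-05 and to -0.00737 for those enriched at least 2-fold.

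**Figure D1:**
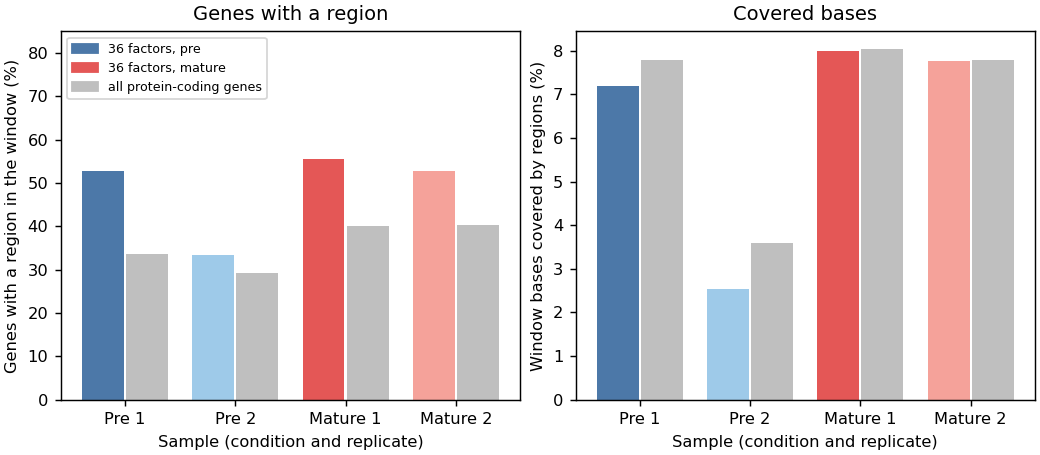
Share of genes with a region in the window (left, %) and share of window bases inside regions (right, %) in each sample, for the 36 factor genes (coloured bars) and all protein-coding genes (grey bars). A larger share of the factor genes than of all genes had a region in every sample, but their covered share, pooled over bases, was at or below that of all genes.

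The 36 genes were then grouped by the samples that had a region. In all 4 samples 9 genes had a region (20.3% of all protein-coding genes did), namely Klf2, Klf6, Klf15, Ebf2, Mlxipl, Gata3, Zfp423, Zfp467 and Foxc2. This counts windows and not shared sequence. Bases inside a region in all 4 samples were found at Klf2 (1600 bp), Ebf2 (10200 bp), Zfp423 (10600 bp) and Foxc2 (2000 bp). There were none at Klf6, Klf15, Mlxipl, Gata3 and Zfp467. Both mature samples and 1 pre-adipocyte sample had a region at 6 genes (background 8.14%), namely Cebpa, Cebpb, Klf7, Klf9, Ebf1 and Nr3c1, and in each the sample without it was replicate 2 of pre-adipocytes. Only Cebpd had a region in both mature samples and neither pre-adipocyte sample (background 4.73%), and no gene showed the opposite (background 0.896%). Without replicate 2 of pre-adipocytes 15 genes had a region in every remaining sample, and without replicate 1 of pre-adipocytes 7 genes had one in both mature samples and not in the other.

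Klf3 had a region in both pre-adipocyte samples and 1 mature sample (background 2.08%). Klf5, Gata2, Foxo1 and Rora had one in 1 sample of each condition (background 4.19%). Nr1h2 and Nr1h3 in replicate 2 of mature adipocytes and Egr2 in replicate 1 of pre-adipocytes made up the 3 genes with a region in 1 sample (background 11.6%). The 12 genes without any region (background 48.1%) were Cebpg, Ddit3, Klf4, Ebf3, Srebf1, Srebf2, Creb1, Stat5a, Stat5b, Nr2f2, Id2 and Nr1d1.

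Counting any sample, 24 of the 36 genes had a region, beside 51.9% of all protein-coding genes. Long windows are more likely to hold a region, so the genes were also split by window length. Of the 12 factor genes with windows under 30 kb 8 had a region (background 39.9%), of the 12 with windows of 30 to 60 kb again 8 (background 51.8%), and of the 12 with longer windows 8 (background 67.2%). The share thus lay above the background in the 2 shorter classes and level with it in the longest. A region in all 4 samples was found at 3 of 12 genes in each class, beside 13.3%, 18.3% and 31.8%.

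Other genes of the adipogenic pathway were counted in the same way. In a list of 28 further regulators, such as Pparg, Prdm16 and Irf4, 22 had a region in at least 1 sample and 8 in all 4. In a list of 22 genes that adipogenic factors are known to regulate, such as Fabp4, Adipoq and Fasn, 15 had a region in at least 1 sample and 4 in all 4. Both lists stand beside the same backgrounds of 51.9% and 20.3%.

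**Figure D2:**
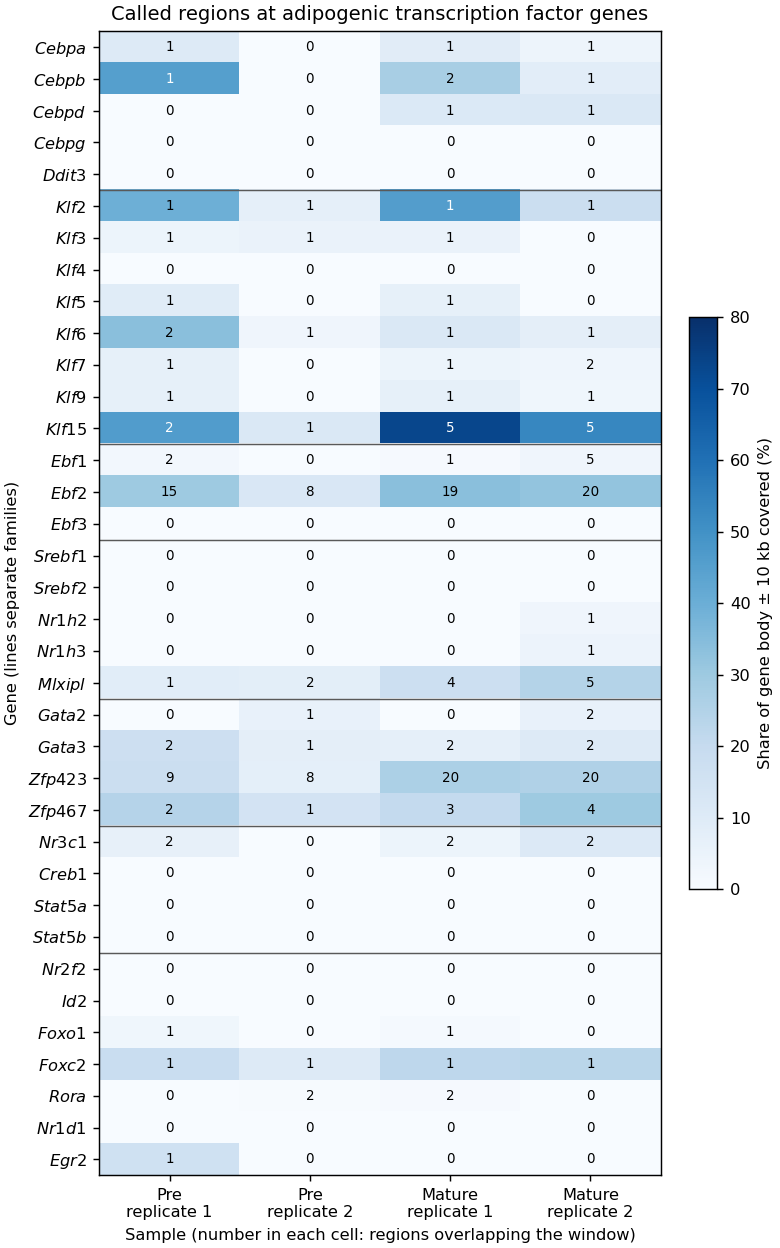
Share of each gene's window (gene body and 10 kb on either side) inside regions, as colour in %, for the 36 genes (rows, by family) in the 4 samples (columns); the number in each cell counts regions. Klf15 had the largest covered share, Ebf2 and Zfp423 had the most regions, and 12 rows were empty in every sample.

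Regions seldom reached a gene start. The start of the GENCODE gene lay inside a region at 2 of the 36 genes, Klf2 in replicate 1 and Mlxipl in replicate 2 of mature adipocytes, beside 11.3% of all protein-coding genes. Within 1 kb of the start a region was found at 3 and 0 genes in pre-adipocytes (background 11.2% and 5.72%) and at 5 and 3 genes in mature adipocytes (background 12.0% and 11.5%). The upstream flank was covered more than the gene body, as over all protein-coding genes. Its 10 kb were covered to 18.2% and 3.70% in pre-adipocytes and to 17.5% and 10.8% in mature adipocytes, and gene bodies to 5.08% and 1.90%, and 6.88% and 7.21%. Over all protein-coding genes the upstream flanks were covered to 11.9%, 5.42%, 11.4% and 10.8% in the same order of samples, and the gene bodies to 6.997%, 3.29%, 7.49% and 7.27%. At several genes the nearest region, with edges known only to a 200 bp grid, ended shortly before the start. It ended 315 bp upstream of Cebpb in replicate 1 of pre-adipocytes, 291 bp upstream of Klf5 in replicate 1 of mature adipocytes, 206 bp upstream of Zfp423 in replicate 1 of pre-adipocytes and replicate 2 of mature adipocytes, and 171 bp upstream of Foxc2 in both mature samples.

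**Figure D3:**
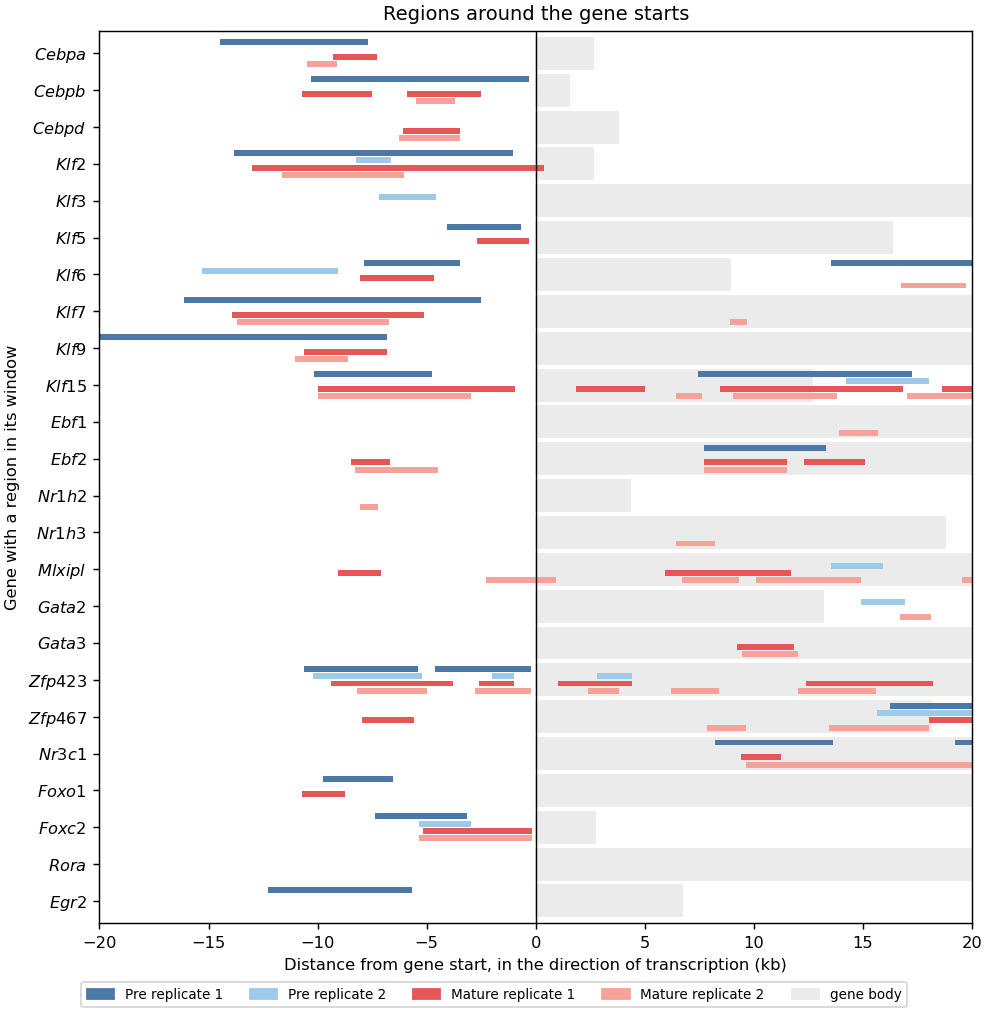
Regions within 20 kb of the gene start (x axis, kb, in the direction of transcription) at the 24 genes with a region, 1 row per gene and 1 coloured line per sample, with gene bodies in grey. Lines lie on both sides of the start, and 2 of them cross it, at Klf2 and Mlxipl.

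Gene starts differ between annotations, and this mattered for Gata3. The RefSeq table held starts for 31 of the 36 genes, 44 in all, and 4 genes had a RefSeq start inside a region (Gata3, Klf2, Mlxipl and Nr1h3), beside 16.6% of 26794 RefSeq genes. The RefSeq start of Gata3, at chr2:9878600 on the minus strand, lies 11434 bp inside the longer GENCODE gene. It was inside a region in both mature samples and in neither pre-adipocyte sample, a pattern found at 1.34% of RefSeq genes. The 2 regions, chr2:9878201-9880800 with 88 ChIP and 50 control reads and chr2:9878001-9880600 with 86 and 48, were enriched 1.43-fold and 1.49-fold. RefSeq starts were looked up after the GENCODE result was seen.

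The sequence just upstream of 4 starts is shown as 250 bases from the RefSeq promoter table (GRCm38.p6), 5′ to 3′ on the gene's strand. In these windows capitals mark the GC box GGGCGG or its reverse complement CCGCCC. The stretch at Mlxipl (chr5:135089640-135089889, plus strand) lay inside the mature replicate 2 region. That at Zfp423 (chr8:87959596-87959845, minus strand) held the region's edge in 2 samples, and those at Cebpa (chr7:35119043-35119292, plus strand) and Klf15 (chr6:90462326-90462575, plus strand) lay outside all regions.
Mlxipl: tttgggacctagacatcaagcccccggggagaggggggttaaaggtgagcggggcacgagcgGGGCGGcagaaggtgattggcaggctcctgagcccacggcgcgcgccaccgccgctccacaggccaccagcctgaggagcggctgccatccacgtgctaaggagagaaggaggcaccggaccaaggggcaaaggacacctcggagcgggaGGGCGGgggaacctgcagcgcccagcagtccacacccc
Zfp423: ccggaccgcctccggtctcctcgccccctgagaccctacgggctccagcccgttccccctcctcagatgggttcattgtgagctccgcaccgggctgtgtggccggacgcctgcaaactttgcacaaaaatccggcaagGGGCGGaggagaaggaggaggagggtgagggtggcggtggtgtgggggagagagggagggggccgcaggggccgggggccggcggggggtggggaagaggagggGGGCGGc
Klf15: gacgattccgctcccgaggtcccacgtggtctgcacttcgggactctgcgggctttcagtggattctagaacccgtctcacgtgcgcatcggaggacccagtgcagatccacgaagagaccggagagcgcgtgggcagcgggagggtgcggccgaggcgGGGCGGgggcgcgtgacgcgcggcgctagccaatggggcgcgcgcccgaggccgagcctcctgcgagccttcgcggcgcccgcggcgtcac
Cebpa: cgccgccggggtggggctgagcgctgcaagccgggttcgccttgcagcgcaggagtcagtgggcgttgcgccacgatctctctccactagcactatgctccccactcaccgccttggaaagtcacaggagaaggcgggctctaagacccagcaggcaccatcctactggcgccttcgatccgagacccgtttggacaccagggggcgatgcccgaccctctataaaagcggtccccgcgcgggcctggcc

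These stretches were rich in G and C. Median GC content was 67.2% over the 31 genes with an entry, beside 52.4% over all 32851 RefSeq promoters of the same length, and was 67.2% for the 19 genes with a region and 66.2% for the 12 without. A GC box on either strand was present at 19 of 31 genes (61.3%, beside 32.7% of all promoters). The CCAAT motif was present at 11 (35.5%, beside 33.9%). The letters TATAAA were found at Cebpa alone (3.23%, beside 12.4%).

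Among the C/EBP genes, regions lay upstream of the genes and never in their bodies. C/EBPδ is induced within hours of the hormone cocktail. At Cebpd (chr16:15887286-15891031, plus strand) no region lay in the window in either pre-adipocyte sample, and the nearest was 91370 and 11486 bp from the gene. Replicate 1 of mature adipocytes had a region at chr16:15881201-15883800 with 145 ChIP and 90 control reads, enriched 1.31-fold, and replicate 2 had one at chr16:15881001-15883800 with 176 and 98 reads, enriched 1.49-fold. The FDR was 9.31e-04 in replicate 1 and 5.16e-07 in replicate 2. Both mature regions ended in the same step of the 200 bp grid on which regions lie, 3486 bp before the start.

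Cebpa, whose product acts with PPARγ in the cascade, and Cebpb, whose product induces it, had upstream regions in 3 samples. At Cebpa they lay 7.29 to 14.5 kb before the start and covered 4.01% to 10.2% of the window. The mature replicate 2 region was enriched 8.95-fold, the highest value at any of the 36 genes, but it rested on 54 ChIP and 5 control reads. The 2 mature regions at Cebpa shared 200 bp. At Cebpb the regions covered 8.37% to 45.0% of the window and also overlapped the neighbouring gene Tmem189. Cebpg, a partner that lacks a strong activation domain, and Ddit3 (CHOP), an inhibitor of the other C/EBP proteins, had no region, and the nearest lay 28.2 to 184 kb and 23.3 to 46.3 kb from the gene.

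The KLF family had regions at 7 of 8 genes, and the GATA and zinc finger genes at 4 of 4, beside 51.9% of all protein-coding genes. The C/EBP genes and the lipid and glucose sensors had them at 3 of 5 each, and the EBF genes at 2 of 3. The repressors and late factors had them at 4 of 7, and the hormone and signal factors at 1 of 4. These families are small, and the background is not matched for window length. KLF15, which rises late in differentiation and induces the glucose transporter GLUT4, had the most covered gene of all. At Klf15 (chr6:90462576-90475238, plus strand) regions covered 46.0% and 11.6% of the window in pre-adipocytes and 73.0% and 53.3% in mature adipocytes. Both mature samples lay above both pre-adipocyte samples (28.8 ± 24.3% and 63.1 ± 13.9%, SD, n = 2; exact permutation test, p = 0.333). The pre-adipocyte samples had 2 and 1 regions with 464 and 57 ChIP reads, and the mature samples had 5 each with 977 and 608. Averaged over the 4 samples, 2.85% of protein-coding genes had as large a covered share. Still, no base of the window lay inside a region in all 4 samples. At the 3′ end of the gene, a replicate 1 region of each condition, chr6:90470001-90479800 and chr6:90471001-90479400, covered much the same stretch with 281 and 269 ChIP reads and fold enrichments of 2.44 and 2.64.

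KLF2, a repressor of Pparg, had its region upstream. Regions covered 39.6% and 7.07% of the Klf2 window (chr8:72319033-72321656, plus strand) in pre-adipocytes and 45.8% and 17.5% in mature adipocytes. Replicate 1 of each condition was high and replicate 2 low, so the conditions overlapped. The replicate 1 regions held 515 and 489 ChIP reads and ran from 13.8 and 13.0 kb before the start, and that of mature adipocytes crossed the start by 367 bp, while the pre-adipocyte one also touched the gene model Gm10282. KLF6, which represses the pre-adipocyte gene Dlk1, had regions on both sides of the gene. They covered 33.9% and 3.18% of the Klf6 window (chr13:5861482-5870394, plus strand) in pre-adipocytes and 11.8% and 7.59% in mature adipocytes, again overlapping. Replicates of Klf6 shared no base in either condition.

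The remaining KLF genes had small covered shares. At Klf7 (chr1:64029447-64122282, minus strand), an inhibitor of adipogenesis, they were 6.63% and 0% in pre-adipocytes and 4.33% and 3.62% in mature adipocytes, so the conditions overlapped. The regions at Klf7 held 514 ChIP reads in replicate 1 of pre-adipocytes and 394 and 352 in the mature samples. Klf9, which helps to induce Pparg, had 2.93% to 6.77% in the 3 samples with a region. Klf3, a repressor of Cebpa, had 4.24% to 5.25% and Klf5, an activator of Pparg, had 6.60% and 9.35%. Klf4, an early inducer of Cebpb, had no region within 12.1 kb in any sample.

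EBF genes differed among themselves. EBF2 marks brown and beige fat precursors. At Ebf2 (chr14:67233292-67430918, plus strand) 15 and 8 regions in pre-adipocytes and 19 and 20 in mature adipocytes covered 29.7% and 12.1%, and 34.1% and 32.0%, of the window. The mature samples were alike and lay above both pre-adipocyte samples (20.9 ± 12.5% and 33.0 ± 1.43%, SD, n = 2; exact permutation test, p = 0.333). ChIP reads in these regions summed to 2210 and 456 in pre-adipocytes and 2986 and 2743 in mature adipocytes, over 1027, 423, 1304 and 1127 control reads. Most regions touched introns alone, 12, 6, 12 and 15 of them in the order of samples. Of the bases covered in mature replicate 1, 58.4% were also covered in replicate 2, and of those in replicate 2, 62.1% in replicate 1. In pre-adipocytes the shares were 28.1% of replicate 1 and 68.9% of replicate 2. Regions in all 4 samples coincided over 10200 bp, 4.69% of the window.

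Ebf1, which induces Cebpa and Pparg, and Ebf3 contrasted with Ebf2. Regions covered 2.07% and 0% of the Ebf1 window (chr11:44617317-45008091, plus strand) in pre-adipocytes and 0.779% and 3.14% in mature adipocytes, with no separation of the conditions. Ebf3 (chr7:137193673-137314445, minus strand) had no region within 1.40 Mb in any sample, and lay in a stretch of 3.13 to 3.60 Mb without regions. Among the other 35 genes the greatest distance to the nearest region in any sample was 198 kb, at Id2.

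Zfp423 encodes a zinc finger protein that commits precursor cells to the fat lineage. At Zfp423 (chr8:87661810-87959595, minus strand) 9 and 8 regions in pre-adipocytes and 20 and 20 in mature adipocytes covered 18.1% and 7.49%, and 26.5% and 25.6%, of the window. As at Ebf2, the mature replicates were close to each other and above both pre-adipocyte samples (12.8 ± 7.52% and 26.1 ± 0.625%, SD, n = 2; exact permutation test, p = 0.333). ChIP reads summed to 2220, 467, 3109 and 3079 over 1165, 437, 1518 and 1425 control reads. Regions touching introns alone numbered 6, 6, 15 and 15, and regions of all 4 samples coincided over 10600 bp, 3.34% of the window.

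Ebf2 and Zfp423 together made up 16.3% of the window bases but 51.6% and 60.3% of the covered bases in pre-adipocytes and 60.1% and 59.1% in mature adipocytes. Without these 2 genes, chosen after their values were seen, the other 34 windows were covered to 4.16%, 1.20%, 3.81% and 3.79%, and the conditions overlapped.

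**Figure D4:**
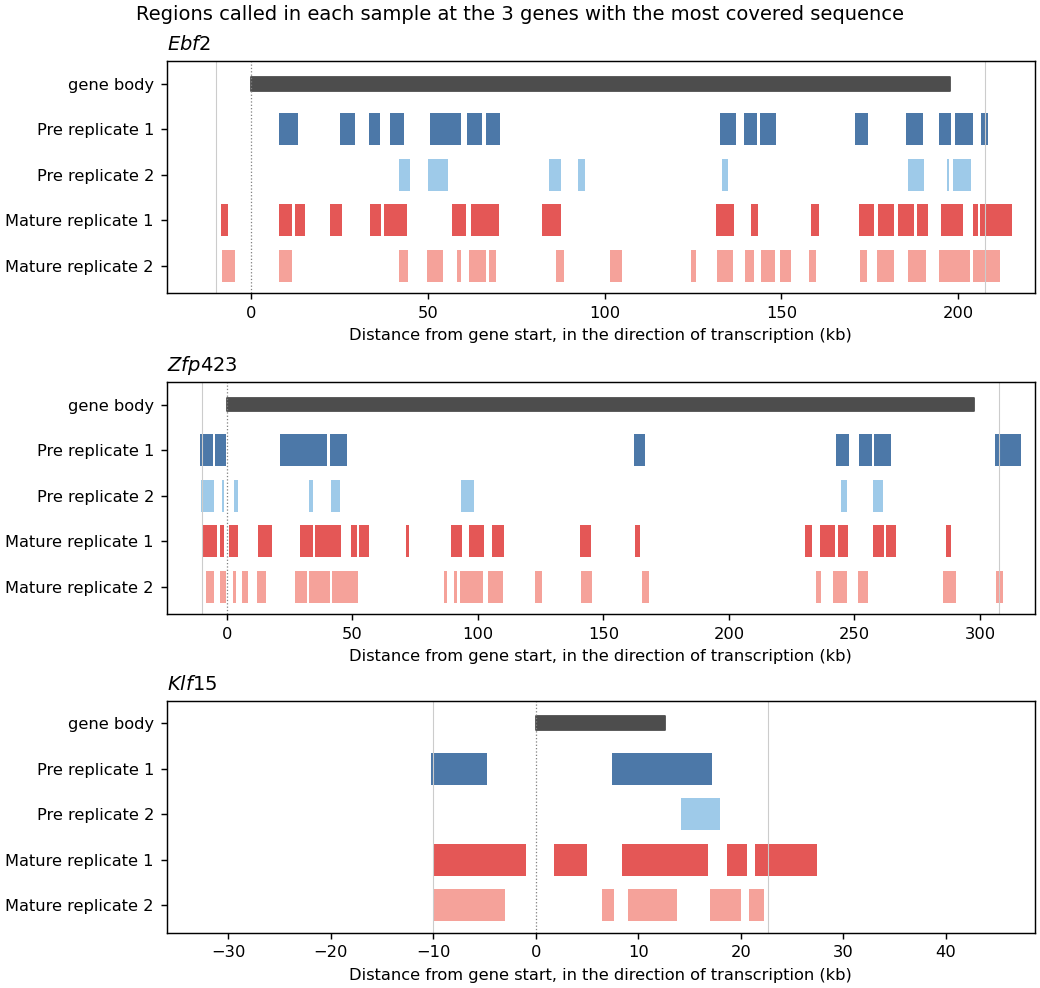
Regions in each sample (coloured bars) at Ebf2, Zfp423 and Klf15 by distance from the gene start (x axis, kb, in the direction of transcription), with the gene body as a dark bar and the window limits as grey lines. The mature samples hold 19 and 20 regions at Ebf2, 20 and 20 at Zfp423 and 5 and 5 at Klf15, and replicate 2 of pre-adipocytes holds 8, 8 and 1.

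ZFP467 favours fat over bone in stromal cells. Regions covered 24.1% and 14.7% of the Zfp467 window (chr6:48427697-48445825, minus strand) in pre-adipocytes and 20.5% and 29.9% in mature adipocytes, so the conditions overlapped. All 4 samples had a region across the 3′ end of the gene or just inside it, and others touched the neighbouring genes Krba1 and Sspo. GATA3 and GATA2 keep pre-adipocytes undifferentiated. At Gata3 (chr2:9857078-9890034, minus strand) 17.0% and 7.79% of the window was covered in pre-adipocytes and 7.18% and 10.1% in mature adipocytes. A downstream region, 38.4 to 44.4 kb from the start, was found in both pre-adipocyte samples and in replicate 2 of mature adipocytes with fold enrichments of 2.48, 2.62 and 2.29. Gata2 had regions in 1 sample of each condition, all of them downstream.

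Among the lipid and glucose sensors, Mlxipl (ChREBP, the glucose-responsive activator of lipogenic genes) stood apart. Regions covered 8.73% and 7.88% of the Mlxipl window (chr5:135089890-135138382, plus strand) in pre-adipocytes and 17.2% and 24.5% in mature adipocytes, with 1, 2, 4 and 5 regions. Both mature samples were above both pre-adipocyte samples, which here had similar shares (8.31 ± 0.601% and 20.9 ± 5.16%, SD, n = 2; exact permutation test, p = 0.333). The places differed, as the pre-adipocyte samples shared 200 bp, 3.34% of the covered bases of replicate 1 and 3.70% of those of replicate 2. ChIP reads summed to 188, 88, 420 and 499 over 99, 83, 159 and 208 control reads. A stretch 5.91 to 11.7 kb inside the gene in replicate 1 of mature adipocytes and 6.71 to 9.31 kb in replicate 2, enriched 2.05-fold and 2.60-fold, had no region in either pre-adipocyte sample. The LXR genes Nr1h2 and Nr1h3, whose products sense oxysterols, had 1 region each with 42 and 64 ChIP reads. Srebf1 and Srebf2, activators of fatty acid and sterol synthesis, had none within 19.6 kb.

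The hormone and signal factors were sparsely covered. Nr3c1, the glucocorticoid receptor that binds dexamethasone, had intronic regions in 3 samples and a downstream region in replicate 2 of mature adipocytes, and 4.19% to 10.8% of the window was covered in these samples. Creb1, the mediator of the cAMP signal raised by IBMX, had none within 21.0 kb. Stat5a and Stat5b, which relay growth hormone signals and lie 8626 bp apart so that their windows overlap, had none within 17.7 kb.

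Among the repressors and late factors, Foxc2, a forkhead factor that induces brown fat genes, had a region in all 4 samples. Regions covered 18.5% and 10.6% of the Foxc2 window (chr8:121116171-121118895, plus strand) in pre-adipocytes and 22.0% and 22.9% in mature adipocytes. The mature samples lay above both pre-adipocyte samples (14.5 ± 5.60% and 22.4 ± 0.622%, SD, n = 2; exact permutation test, p = 0.333). The region of replicate 1 of pre-adipocytes began 7.37 kb before the start, and the others began 5.17 to 5.37 kb before it. The regions of the conditions also stopped at different places. Those of pre-adipocytes, with 156 and 55 ChIP reads, ended 3171 and 2971 bp before the start, and those of mature adipocytes, with 194 and 200, ended 171 bp before it. Fold enrichment of these regions ran the other way, at 1.71 and 1.82 in pre-adipocytes and 1.52 and 1.49 in mature adipocytes. All 4 also overlapped the gene model Gm20388. Foxo1, which insulin signalling restrains, had upstream regions in replicate 1 of each condition, and Rora, at 734461 bp the longest gene, was covered to 0.610% and 0.769% in 1 sample of each. Egr2, an early inducer of Cebpb, had 1 upstream region. Nr2f2 (COUP-TFII), Id2 and Nr1d1 (REV-ERBα) had no region within 27.3 kb.

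The covered share was higher in both mature samples than in both pre-adipocyte samples at 6 of the 36 genes (Cebpd, Klf15, Ebf2, Mlxipl, Zfp423 and Foxc2), beside 14.1% of all protein-coding genes. The reverse order was found at none, beside 3.39%. For the 6 genes the share is 16.7%, close to the background.

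Read density was then compared in merged regions with a call in every sample. Overlapping regions of the 4 samples were merged, and each sample's reads were counted over its own called stretches. Such stretches need not share a base between samples. There were 12857 merged regions with a call in all 4 samples. Of these, 11 differed between conditions by edgeR's quasi-likelihood test at an adjusted p under 0.05 (0.0856%), 10 upward in mature adipocytes (0.0778%) and 1 downward (0.00778%). The windows of 9 genes were overlapped by 16 of the tested merged regions, and 0 of the 16 were called. Called stretches of a merged region that lay outside the window were counted too. Replicate 2 of pre-adipocytes had no region in the windows of Ebf1 and Klf7, yet entered there with 40 and 290 ChIP reads. By unadjusted p, 2 of the 16 were under 0.05, beside 9.15% of all tested regions, and DESeq2 called 0 and limma 0. In simulated counts the test recovered 25% of regions changed by a log2 fold change of 0.5 and 97% of those changed by 1. The simulation set a fixed dispersion and kept each sample's called stretches unchanged. It therefore does not give the recovery to be had in these data, where a change may also alter or remove a call.

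The log2 fold changes of the 16 regions, mature over pre-adipocytes, ran from -0.26 to 0.33, with 8 above 0 and 8 below and a median of 0.011, beside -0.00066 over all tested regions. The highest was in an Ebf2 intron, chr14:67283001-67294000. Its ChIP reads were 257 and 79 in pre-adipocytes and 152 and 205 in mature adipocytes, in called stretches of 8800, 5600, 3800 and 5400 bp, with fold enrichments of 1.72, 1.85, 2.58 and 2.05. Enrichment was higher in both mature samples, and the log2 fold change in density was 0.33 (SE 0.15, edgeR adjusted p = 0.478). It compares partly different sequence. The stretches of pre-adipocyte replicate 2 (chr14:67283401-67289000) and mature replicate 1 (chr14:67290201-67294000) shared no base. The merged region at Klf2, chr8:72305201-72319400, had 515 and 85 reads in pre-adipocytes and 489 and 212 in mature adipocytes, and a log2 fold change of -0.26 (SE 0.11, edgeR adjusted p = 0.456). Its fold enrichments of 1.51, 1.78, 1.40 and 1.53 overlapped between conditions.

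Around Klf15, the merged region at the 3′ end (chr6:90469001-90483200) had fold enrichments of 2.44 and 2.60 in pre-adipocytes and 2.32 and 2.55 in mature adipocytes with a log2 fold change of 0.11 (SE 0.13). The next one, chr6:90483401-90512800, lay over the neighbour Aldh1l1 and ran on past the window. The 5 Ebf2 regions had log2 fold changes of -0.04, 0.33, -0.09, 0.19 and -0.07 along the gene, and the 3 at Zfp423 had 0.06, -0.06 and 0.05. The region before Klf6 (chr13:5833401-5852400) had the lowest value, -0.26 (SE 0.14), and 81 ChIP reads in replicate 1 of pre-adipocytes, enriched 3.21-fold, against 1.61-fold in replicate 2. Only replicate 2 of pre-adipocytes had a called stretch of it inside the Klf6 window, so the 81 reads lay outside. The single regions at Ebf1, Klf7, Foxc2 and Zfp467 had log2 fold changes of 0.10, 0.04, -0.14 and -0.01. Over all 16 the adjusted p ran from 0.456 to 0.994.

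**Figure D5:**
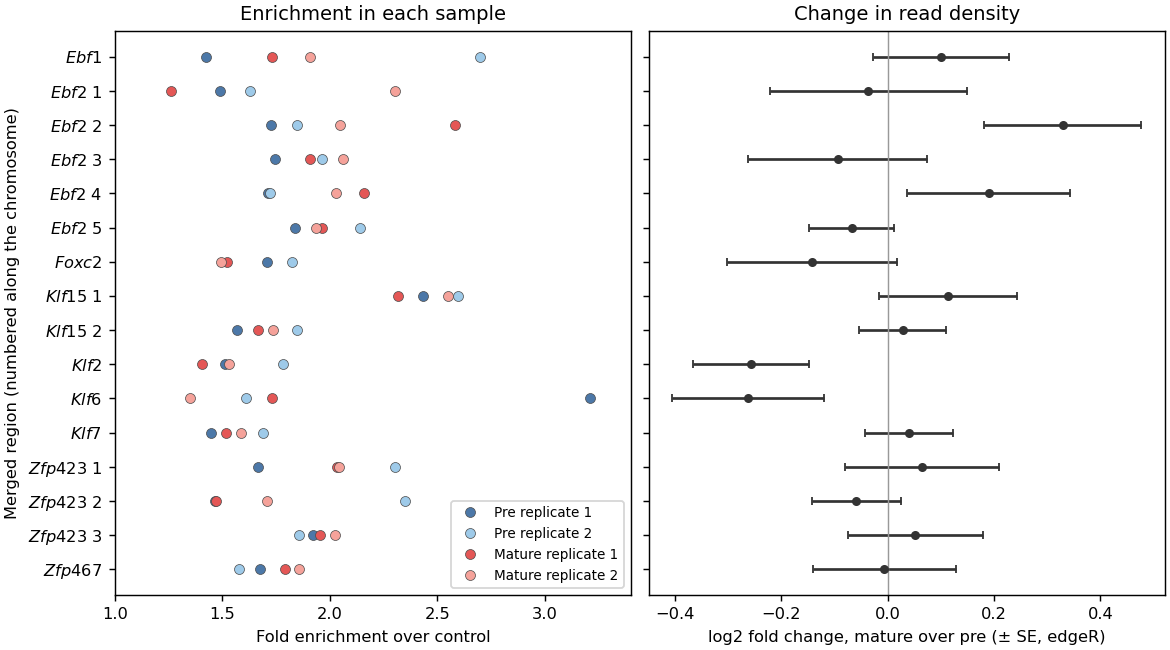
Fold enrichment over control in each sample (left) and log2 fold change of read density, mature over pre-adipocytes, with its SE from edgeR (right), for the 16 merged regions called in all 4 samples. Fold enrichments run from 1.26 to 3.21, those of the conditions mostly overlap, and the changes run from -0.26 to 0.33 around 0.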

How the data were processed

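Single reads from the ChIP libraries were aligned by the authors to mm10 with Bowtie 1.1.2 after bcl2fastq 2.16, duplicates were removed with Picard and regions were called per sample with SICER 1.1. The deposited tables give, per region, raw counts of ChIP and control reads, a p-value with its FDR (at most 0.001), and the fold ratio of ChIP to control, all as the authors deposited them. The methods state an FDR of 1%. The control has no table here.

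Regions lie on a 200 bp grid and are printed 1-based. A gene was given a region where they overlapped by at least 1 bp. Ddit3 has 2 GENCODE identifiers, which were joined. Merged regions called in all 4 samples were tested with edgeR 4.0.16 (quasi-likelihood, TMM, offset of log called length, Benjamini-Hochberg); DESeq2 1.42.0 and limma 3.58.1 (R 4.3.3) were alternatives. Exact permutation tests compared values per sample. The script was tested on simulated counts, and overlaps against brute-force counting. Python 3.11.15, numpy 2.4.6, pandas 2.3.3 and scipy 1.17.1 were used. Groups came from sample titles; that replicates came from separate cultures is stated only as biological duplicates.

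The genes, lists and tests were chosen with earlier results of these data known. Per-sample values are given for genes with a region in all 4 samples, in both samples of 1 condition alone, or with a tested merged region, and for the 3 genes with the largest covered share; others are given by range. Alternatives were the window, the FDR (1e-05), fold enrichment (at least 2), overlap (1000 bp), an equal number of regions per sample, normalizations, other tests, and leaving out each replicate.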

Additional observations from a re-analysis of the deposited data

How the results depend on the processing

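With regions of FDR at most 1e-05 the difference in median fold enrichment turned from 0.0657 to -0.0566, and with fold enrichment of at least 2 to -0.00737. Leaving out each replicate gave -0.116 to 0.247. With the same number of regions in every sample (36468), the mean number of factor genes with a region was 3.5 lower in mature adipocytes (a difference of -3.5 in place of 4). The cause was not tested. The difference in covered share stayed above 0 under all alternatives run, and was 0.612 points with the same number of regions. Its conditions overlapped, however, with 20 kb flanks, within 10 kb of the gene start, at FDR 1e-05, with equal numbers of regions and without Ebf2 and Zfp423.

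Genes with a region in all 4 samples numbered 9, and 3 in gene bodies alone, 3 within 10 kb of the gene start, 4 at FDR 1e-05, 4 at fold enrichment 2 and 5 with equal numbers of regions (9 to 15 leaving out each replicate). Genes with regions in mature samples alone numbered 1, and 0 in gene bodies, 0 with 20 kb flanks, 4 within 10 kb of the start, 0 at FDR 1e-05 and 0 with equal numbers (1 to 7 leaving out each replicate, 7 without replicate 1 of pre-adipocytes and 3 without replicate 1 of mature adipocytes). Genes without any region numbered 12, and 24 in gene bodies and 23 at fold enrichment 2. Genes with a start inside a region numbered 2 by GENCODE and 4 by RefSeq.

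The 11 merged regions called in the whole table became 2 with DESeq2, 0 with library size in place of TMM (68 at an unadjusted p under 0.05), 3 without the length offset, 0 with limma (204 unadjusted), 1 at FDR 1e-05, and 1 to 215 leaving out each replicate, 175 and 215 without replicates 1 and 2 of pre-adipocytes and 7 and 1 without those of mature adipocytes. With the replicate number as a block 27 were called. Same-numbered samples did not deviate together (correlation 0.00775), so the block carries no known pairing. Of the merged regions that overlapped the windows, 0 were called under every alternative run.

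Without the length offset 9 of the 16 log2 fold changes turned, to -0.25 (Klf7), 0.10 (Klf6), 0.045, -0.51, 0.34 and 0.65 (Ebf2), 0.35 and -0.40 (Zfp423) and 0.25 (Foxc2). DESeq2 gave 0.0334 (Ebf2) and 0.0338 (Zfp467), library size 0.0303 and 0.0491 for the same regions, the replicate block 0.0534 (Zfp467), and FDR 1e-05 -0.10 (Zfp423). Limma on fold enrichment gave -0.0105 (Klf7), -0.11 (Ebf1), 0.13 and 0.10 (Ebf2), 0.17 (Zfp467) and -0.0492 (Klf15). Leaving out each replicate moved them across 0 at Ebf1 (-0.22 to 0.17), Ebf2 (-0.24 to 0.28), Klf15 (-0.0383 to 0.10), Klf7 (-0.0602 to 0.20), Zfp423 (-0.0397 to 0.23) and Zfp467 (-0.13 to 0.25).

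Depth limits what can be said of replicate 2 of pre-adipocytes: a window without a region there is one where none was called, not one without macroH2A1.2. Reads outside regions are not in the tables, so levels at the 12 genes without a region could not be compared. Broad regions also overlap neighbouring genes.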
